A study of Rattus norvegicus with 6 samples.

Results

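The extracellular matrix of the heart holds, besides its collagens, a set of glycoproteins and proteoglycans, of which 43 genes are described here in rat hearts. They were chosen by gene symbol, with earlier results of these data known, and were sorted into 5 classes by the known nature of their products. The classes are matricellular and other interstitial proteins (15 genes), elastic fibre proteins (9), small leucine-rich proteoglycans (7), cell surface proteoglycans (7), and laminins with nidogen and agrin (5). Of the 43 genes, 40 had a named row on the array, each a single row, among 23188 rows tested, and Thbs3, Matn2 and Gpc6 had none and are not analysed here. Whole-heart RNA was measured on 6 Clariom S Rat arrays, 2 from each of 3 groups of hearts. TAC-R hearts had been released from transverse aortic constriction (TAC), TAC hearts were still under it, and normal hearts served as control. The labels describe male Sprague-Dawley rats, 10 weeks old, in which a silk thread narrowed the aortic arch, and a loop of thread was left so that the ligature could be cut later. They also speak of control rats that had the operation without the ligature, without saying whether the normal hearts were theirs, and the labels used here give neither the time under TAC nor the time after release. Nothing states that the arrays of a group came from separate animals, so that a p-value measures only how far these arrays differ, and that spread may be technical. RNA is said in 1 field of the labels to come from cultured fibroblasts, the main makers of these proteins, whereas the other fields name whole heart. All 11 measured cardiomyocyte markers were above background on all 6 arrays, and 4 of them (Actc1, Mb, Myl3 and Pln) lay at the ceiling of the data on every array, where no difference can be seen.

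Matricellular proteins such as periostin, tenascin and the thrombospondins are secreted signals that sit in the matrix and are made mostly during injury and remodelling, whereas fibronectin forms the provisional network on which collagen is laid down. Fibrillins, fibulins and elastin build the elastic fibres of vessels, valves and interstitium, and the small leucine-rich proteoglycans bind collagen fibrils and set their spacing. Syndecans and glypicans carry heparan sulphate on the cell surface, and laminins, nidogens and agrin form the basement membrane around muscle cells and capillaries.

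Signals are log2 values, so that a difference of 1 is a doubling, and a level of 1 gene cannot be set against that of another because each has its own probes. A signal is called in the background where it did not exceed the 95th percentile of the negative control rows of the same array, which lay between 8.09 and 8.55. By their mean over the arrays, 20 of the 40 genes were above the percentile of the control rows' own means, 8.18, and 20 were in the background, where the size of a difference is not measured. The median of the tested rows of an array lay between 5.31 and 5.39, and the median difference over all rows tested was at most 0.0045 in any comparison. In whole tissue, fewer cells of a type and less RNA per cell cannot be told apart.

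The matrix genes were lower in TAC-R than in TAC hearts as a group, and Fn1, Efemp1 and Gpc3 fell. These were 3 of 40 genes lower at an adjusted p under 0.05 in limma, against 0.207% of all rows tested, and 0 were higher, against 0.224% of all rows. All 3 calls were lost in a fit of the TAC-R and TAC arrays alone (adjusted p = 0.123 for Fn1, 0.0576 for Efemp1 and 0.0585 for Gpc3 in limma), which leaving out a normal array repeats. They were also lost without any 1 of the TAC-R or TAC arrays, where the lone array left is assumed to vary like the other groups, and only that of Gpc3 was kept with quantile normalization or with control rows kept in. At an unadjusted p under 0.05, 22 of 40 were lower and 0 higher, against 6.2% and 4.79% of all rows. In 30 genes both TAC-R arrays lay below both TAC arrays, against 20.4% of all rows, and in 3 genes above them, against 20.1%. The median difference of the 40 genes was -0.66, with a range of -1.94 to 0.55, and 36 differences were below 0, as were 49.4% of all rows. Among the 20 genes above background, set against the 6207 rows above background, 1 passed lower (0.483% of those rows) and 0 higher (0.483%). Of these 20, 14 were lower and 0 higher at an unadjusted p under 0.05, against 7.91% and 5.67% of the rows above background. Both TAC-R arrays lay below both TAC arrays in 19 of the 20 and above them in 1, against 24% and 24.3%, and 19 differences were below 0, against 48.6%.

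**Figure D1:**
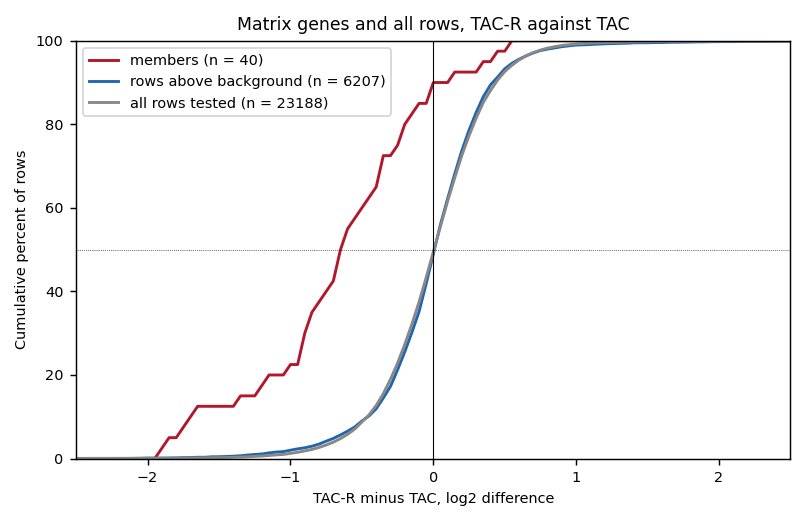
Cumulative percent of rows (vertical axis) by the log2 difference TAC-R minus TAC (horizontal axis) for the 40 matrix genes in red, the 6207 rows above background in blue and all 23188 rows tested in grey. The curve of the matrix genes reaches 90% at 0, where the other curves are near 50%.

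Between TAC and normal hearts 0 of the 40 genes passed in limma, with 0.19% of all rows called higher and 0.0647% lower. At an unadjusted p under 0.05, 14 were higher in TAC hearts and 0 lower, against 5.43% and 4.89% of all rows. In 22 genes both TAC arrays lay above both normal arrays, against 21.9% of all rows, and in 2 below them, against 21.3%. The median difference was 0.24, with 8 of 40 below 0, against 49.7% of all rows. Over the 20 genes above background the median was 0.45, with 2 below 0, against a median of 0.08 and 39.2% below 0 over all rows above background. Of these 20, 0 passed (0.322% of the rows above background were called higher and 0.145% lower), and 8 were higher and 0 lower at an unadjusted p under 0.05, against 6.9% and 2.84%. Both TAC arrays lay above both normal arrays in 13 of the 20 and below them in 0, against 32.2% and 17.6%. The count of 14 was not kept when some single arrays were left out, and the median difference of the 40 genes then lay between 0.24 and 0.33. The comparisons TAC-R minus TAC and TAC minus normal share the TAC arrays, so that a high value there moves both, in opposite directions.

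In the comparison of TAC-R with normal hearts the differences do not use the TAC arrays, which enter only the spread behind the p-values. In it 0 of 40 genes passed in limma, with 0.0302% of all rows called lower and 0.0604% higher. At an unadjusted p under 0.05, 10 genes were lower in TAC-R hearts and 1 higher, against 5.32% and 5.36% of all rows. These 10 were Fn1, Spp1, Sparc, Fbn1, Lum, Aspn, Gpc3, Lamc1, Nid2 and Agrn, and the gene that was higher was Cilp. Among them Spp1, Gpc3, Nid2, Agrn and Cilp were in the background on all 6 arrays, where the size of a difference is not measured. Both TAC-R arrays lay below both normal arrays in 16 genes, against 20.3% of all rows, and above them in 6, against 20.6%. The median difference was -0.22, with 29 of 40 below 0, against 49.6% of all rows. Over the 20 genes above background the median was -0.35, with 15 below 0, against 38.6% of the rows above background. Of these 20, 0 passed (0.0806% of the rows above background were called lower and 0.113% higher), and 6 were lower and 0 higher at an unadjusted p under 0.05, against 3.93% and 7.09%. Both TAC-R arrays lay below both normal arrays in 10 of the 20 and above them in 3, against 16.3% and 29.8%.

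**Figure D2:**
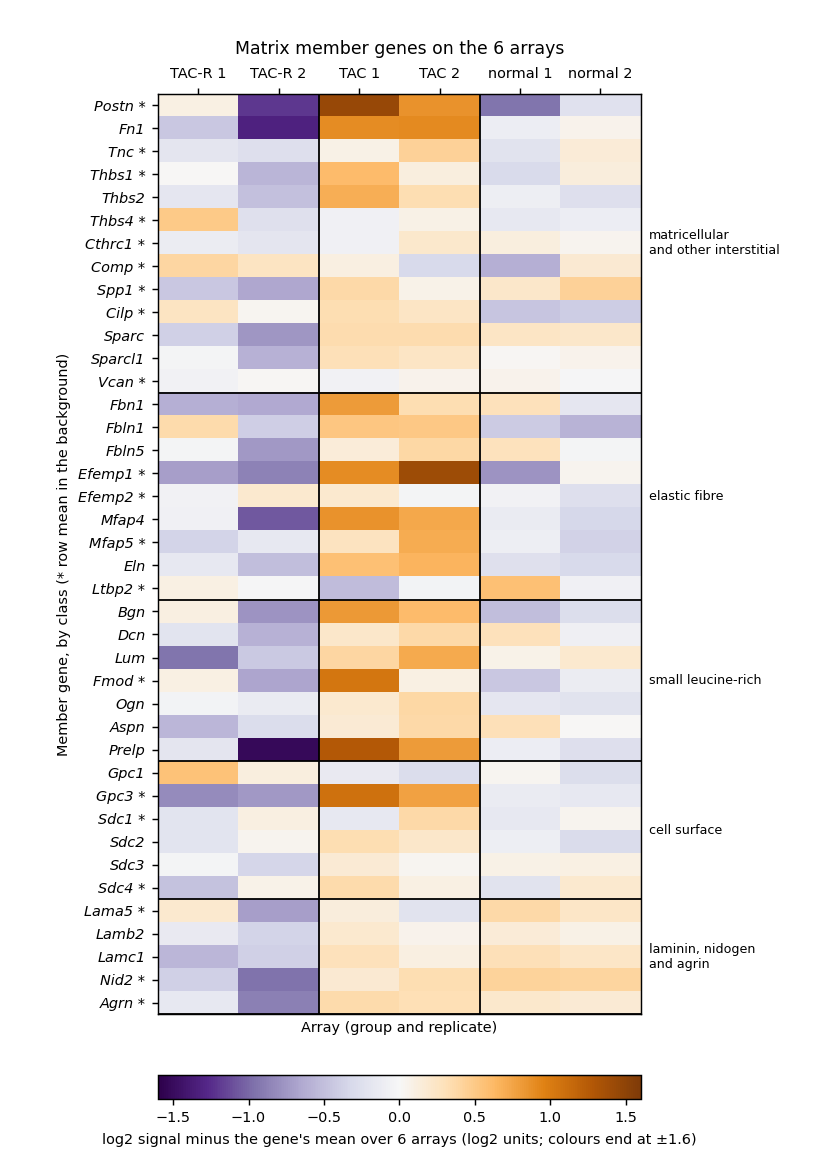
Log2 signal of the 40 genes (rows, by class) on the 6 arrays (columns), each minus the gene's own mean over the arrays, from purple (lower) to orange (higher). The TAC columns are mostly orange and the TAC-R columns mostly purple, with TAC-R 2 lower than TAC-R 1 in 30 of the 40 genes. An asterisk marks the 20 genes whose mean lay in the background.

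The arrays of the TAC-R group differed from each other in these genes. TAC-R replicate 2 was below TAC-R replicate 1 in 30 of 40 genes, by a median of 0.26 (replicate 2 minus replicate 1, -0.26), whereas it was below it in 49.9% of all rows. For the TAC arrays the count was 24 of 40 with a median of -0.08, and for the normal arrays 24 of 40 with a median of -0.04. The median of the 40 genes, each taken relative to its normal mean, was -0.12 and -0.44 on the TAC-R arrays and 0.30 and 0.26 on the TAC arrays, against 0.02 and -0.02 on the normal arrays. Without TAC-R replicate 2 the median difference from TAC was -0.49, and without TAC-R replicate 1 it was -0.87.

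Of the matricellular and other interstitial genes above background, fibronectin had the largest difference between TAC-R and TAC hearts. Fn1, the glycoprotein of the provisional matrix that cells grip through integrins, had log2 signals of 9.05 and 8.18 on the TAC-R arrays and 10.39 and 10.40 on the TAC arrays, against 9.38 and 9.56 on the normal arrays. The order of the groups was thus TAC-R lowest, normal between and TAC highest, with no overlap, and TAC-R replicate 2 lay barely above the background of 8.09. The TAC-R mean of 8.62 ± 0.62 (SD, n = 2) was 3.44-fold below the TAC mean of 10.40 ± 0.0045 (SD, n = 2), a difference of -1.78 ± 0.29 (SE; 95% interval -2.45 to -1.11; adjusted p = 0.0496 in limma). Against normal hearts Fn1 differed by -0.85 ± 0.29 in TAC-R hearts (adjusted p = 0.373 in limma) and by 0.93 ± 0.29 in TAC hearts (adjusted p = 0.36 in limma). The difference of TAC-R from normal hearts was -1.29 without TAC-R replicate 1 and -0.42 without TAC-R replicate 2. That of TAC-R from TAC hearts had adjusted p between 0.0556 and 0.279 with 1 array left out, and lay between -2.22 without TAC-R replicate 1 and -1.35 without TAC-R replicate 2.

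Periostin, the secreted protein used as a mark of activated fibroblasts, was in the background on all 6 arrays. Postn read 5.37 and 4.07 on the TAC-R arrays and 6.71 and 6.13 on the TAC arrays, against 4.33 and 5.04 on the normal arrays. Both TAC arrays were above the other 4, and the sizes of its differences of -1.70 ± 0.43 (TAC-R minus TAC) and 1.74 ± 0.43 (TAC minus normal) are not measured (adjusted p = 0.184 and 0.245 in limma). Sparc, a collagen-binding matricellular protein, read 18.34 and 17.97 on the TAC-R arrays and 19.07 and 19.07 on the TAC arrays, against 18.97 and 18.94 on the normal arrays. Both TAC-R arrays were the lowest, while TAC and normal hearts differed by 0.12 ± 0.22 (adjusted p = 0.895 in limma), and the highest value lay 0.857 below the ceiling of the data. Sparc differed by -0.91 ± 0.22 from TAC and by -0.80 ± 0.22 from normal in TAC-R hearts (adjusted p = 0.167 and 0.302 in limma). Its relative Sparcl1 read 14.33 and 13.77 on the TAC-R arrays and 14.67 and 14.60 on the TAC arrays, against 14.37 and 14.41 on the normal arrays.

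The thrombospondins, which bind calcium, matrix and growth factors, were measured in 3 of 4 genes. Thbs2, the only thrombospondin above background, read 8.84 and 8.53 on the TAC-R arrays and 9.71 and 9.35 on the TAC arrays, against 8.92 and 8.77 on the normal arrays. It differed by -0.85 ± 0.24 between TAC-R and TAC hearts and by 0.68 ± 0.24 between TAC and normal hearts (adjusted p = 0.222 and 0.397 in limma). Thbs1, an activator of latent TGF-beta, and Thbs4 had signals from 4.83 to 7.58 and did not pass. Spp1, osteopontin, read 2.61 and 2.39 on the TAC-R arrays and 3.42 and 3.12 on the TAC arrays, against 3.27 and 3.48 on the normal arrays, all in the background. The remaining genes in the background were Tnc, tenascin-C (3.94 to 4.63), Cthrc1 (3.89 to 4.29), Comp, which belongs to the thrombospondin family (2.01 to 3.01), Cilp (4.93 to 5.72) and Vcan, the large hyaluronan-binding proteoglycan versican (5.81 to 5.93). Of these, Cilp, a protein of cartilage and of cardiac fibroblasts, was high on TAC-R arrays (5.64 and 5.42) and TAC arrays (5.72 and 5.62), against 4.93 and 4.99 on the normal arrays. Over the 4 genes of this class above background (Fn1, Sparc, Sparcl1 and Thbs2) the median difference was -0.88 between TAC-R and TAC hearts, -0.57 between TAC-R and normal hearts and 0.46 between TAC and normal hearts.

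**Figure D3:**
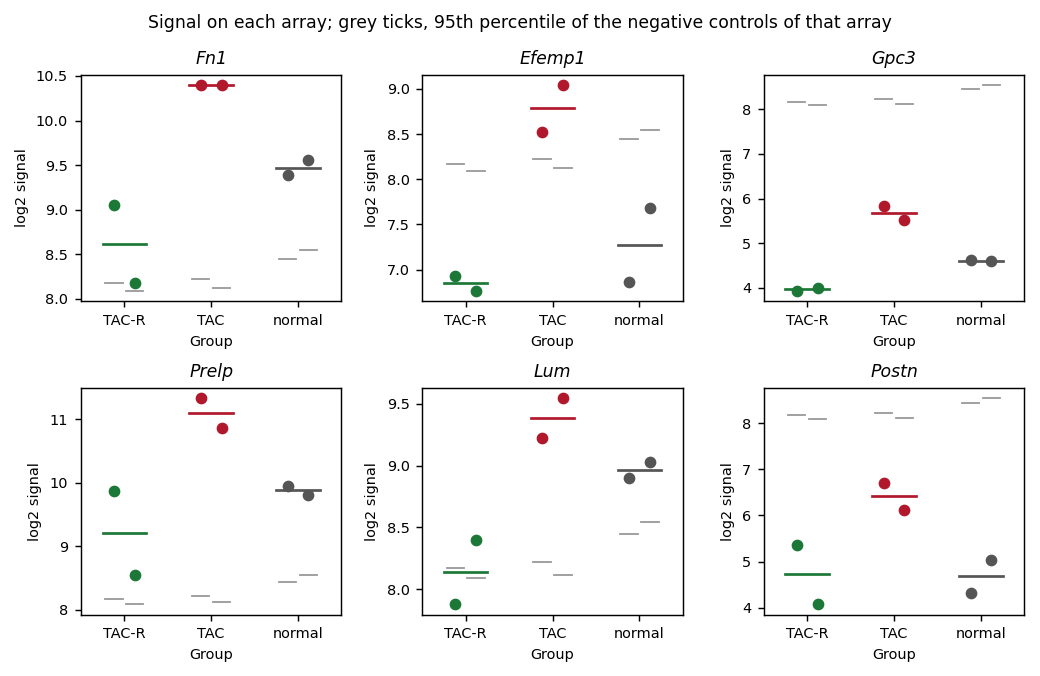
Log2 signal (vertical axis) of Fn1, Efemp1, Gpc3, Prelp, Lum and Postn on each array (points), with the mean of each group as a line and the background limit of each array (95th percentile of negative control rows) as a grey tick. In all 6 genes the TAC points lie above the TAC-R points, and for Gpc3 and Postn every point lies below its grey tick.

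Among the elastic fibre genes Efemp1 fell in TAC-R hearts. Efemp1 encodes fibulin-3, a secreted glycoprotein of elastic tissue and basement membranes. It read 6.93 and 6.76 on the TAC-R arrays and 8.52 and 9.04 on the TAC arrays, against 6.86 and 7.68 on the normal arrays. The TAC arrays were the only ones above background, so that Efemp1 was at least 1.57-fold lower in TAC-R than in TAC hearts (means 6.85 ± 0.12 and 8.78 ± 0.37, SD, n = 2 each; fitted difference -1.94 ± 0.31; adjusted p = 0.0446 in limma). The bound sets the TAC mean against the 95th percentile of the negative controls on the TAC-R arrays. Between TAC and normal hearts it was at least 1.22-fold higher, without passing (adjusted p = 0.142 in limma), and TAC-R and normal arrays overlapped. Without any 1 of the 6 arrays its adjusted p for TAC-R against TAC was between 0.0576 and 0.279.

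Other genes of the elastic fibre did not pass, and each of the 5 above background had both TAC-R arrays below both TAC arrays. Mfap4, a glycoprotein of the elastic microfibril, read 12.49 and 11.48 on the TAC-R arrays and 13.41 and 13.28 on the TAC arrays, against 12.43 and 12.22 on the normal arrays. Its difference of -1.36 ± 0.32 between TAC-R and TAC hearts (adjusted p = 0.158 in limma) was -0.86 without TAC-R replicate 2 and -1.86 without TAC-R replicate 1. Fbn1, fibrillin-1, the backbone of the microfibril, read 9.95 and 9.92 on the TAC-R arrays and 11.36 and 10.89 on the TAC arrays, against 10.85 and 10.38 on the normal arrays. It differed by -1.19 ± 0.26 from TAC and by -0.68 ± 0.26 from normal in TAC-R hearts (adjusted p = 0.131 and 0.415 in limma). Elastin itself, Eln, read 8.51 and 8.16 on the TAC-R arrays and 9.24 and 9.33 on the TAC arrays, against 8.42 and 8.34, in the background, on the normal arrays. Eln was thus at least 1.72-fold higher in TAC than in normal hearts and differed by -0.95 ± 0.22 between TAC-R and TAC hearts, without passing (adjusted p = 0.232 and 0.152 in limma).

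Fibulins showed different orders of the groups. Fbln1, fibulin-1, which binds fibronectin and elastic fibres, read 10.15 and 9.41 on the TAC-R arrays and 10.32 and 10.31 on the TAC arrays, against 9.38 and 9.22 on the normal arrays, so that TAC-R replicate 1 was close to the TAC arrays. Fbln5, fibulin-5, which is needed for elastic fibre assembly, read 9.52 and 8.80 on the TAC-R arrays and 9.69 and 9.92 on the TAC arrays, against 9.83 and 9.51 on the normal arrays, and TAC and normal overlapped. Their differences between TAC-R and TAC hearts were -0.53 ± 0.27 and -0.65 ± 0.28 (adjusted p = 0.529 and 0.449 in limma). Mfap5 (7.19 to 8.27), Efemp2 (3.75 to 4.20) and Ltbp2 (2.68 to 3.76) were in the background, save Mfap5 on TAC replicate 2. Over the 5 genes above background the median difference was -0.95 between TAC-R and TAC hearts, -0.34 between TAC-R and normal hearts and 0.90 between TAC and normal hearts. The last of these is the fitted value of Eln, whose normal arrays were in the background, so that its size is only bounded.

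**Figure D4:**
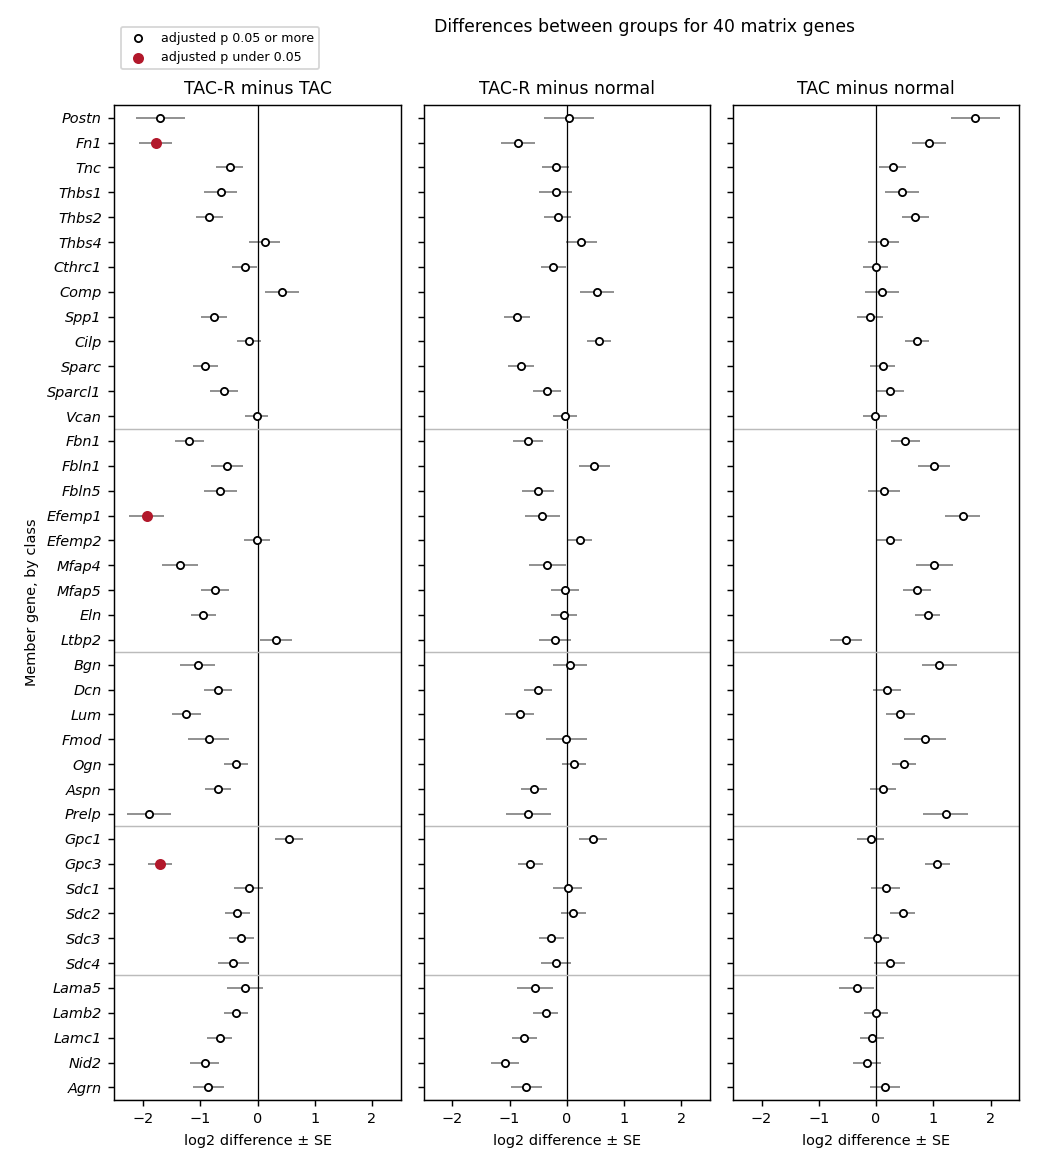
Log2 difference ± SE (horizontal axes) of each of the 40 genes (vertical axis, by class) in TAC-R minus TAC, TAC-R minus normal and TAC minus normal, from limma. Red points passed an adjusted p under 0.05, which only Fn1, Efemp1 and Gpc3 did, in TAC-R minus TAC.

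All 7 small leucine-rich proteoglycans had a difference below 0 between TAC-R and TAC hearts and above 0 between TAC and normal hearts, and 0 passed in either comparison. Those of Dcn and Aspn between TAC and normal hearts turned below 0 with 1 array left out. At an unadjusted p under 0.05, 6 of 7 were lower in TAC-R than in TAC hearts, against 6.2% of all rows. In TAC against normal hearts 4 of 7 were higher, against 5.43% of all rows. Prelp, which links collagen to the heparan sulphate of basement membranes, read 9.86 and 8.55 on the TAC-R arrays and 11.33 and 10.87 on the TAC arrays, against 9.96 and 9.80 on the normal arrays. The TAC arrays stood above all others, while TAC-R replicate 1 lay among the normal arrays. Prelp differed by -1.90 ± 0.39 between TAC-R and TAC hearts and by 1.22 ± 0.39 between TAC and normal hearts (adjusted p = 0.111 and 0.365 in limma), and the first of these was -1.24 without TAC-R replicate 2. Biglycan, Bgn, which also acts as a danger signal when released, read 13.18 and 12.30 on the TAC-R arrays and 13.89 and 13.68 on the TAC arrays, against 12.57 and 12.80 on the normal arrays. Here the TAC-R and normal arrays overlapped, and Bgn differed by -1.05 ± 0.30 between TAC-R and TAC hearts and by 1.11 ± 0.30 between TAC and normal hearts (adjusted p = 0.24 and 0.289 in limma).

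Lumican and decorin, both binders of fibrillar collagen, were lower on both TAC-R arrays than on any other array. Lum read 7.88 and 8.40 on the TAC-R arrays and 9.22 and 9.54 on the TAC arrays, against 8.90 and 9.03 on the normal arrays, and TAC-R replicate 1 was in the background. It differed by -1.24 ± 0.25 from TAC and by -0.82 ± 0.25 from normal in TAC-R hearts (adjusted p = 0.104 and 0.33 in limma). Dcn, which also holds TGF-beta, read 16.65 and 16.26 on the TAC-R arrays and 17.07 and 17.23 on the TAC arrays, against 17.15 and 16.77 on the normal arrays. Its differences in TAC-R hearts were -0.69 ± 0.24 from TAC and -0.51 ± 0.24 from normal (adjusted p = 0.339 and 0.506 in limma).

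Osteoglycin and asporin completed the genes of this class above background. Ogn read 14.66 and 14.58 on the TAC-R arrays and 14.90 and 15.09 on the TAC arrays, against 14.52 and 14.48 on the normal arrays, which put the TAC-R arrays between the other groups. Aspn read 8.23 and 8.51 on the TAC-R arrays and 8.97 and 9.17 on the TAC arrays, against 9.10 and 8.80 on the normal arrays, with TAC-R lowest. Fmod, fibromodulin, ranged from 5.37 to 7.08 and was in the background. In the rat assembly GRCr8 Dcn lies next to Lum on chromosome 7 and Prelp next to Fmod on chromosome 13, counting protein-coding genes. The differences between TAC-R and TAC hearts were -0.69 and -1.24 for the first pair and -1.90 and -0.86 for the second, the last of them in the background. Over the 6 genes above background the median difference was -0.87 between TAC-R and TAC hearts, -0.54 between TAC-R and normal hearts and 0.46 between TAC and normal hearts.

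Of the cell surface proteoglycans Gpc3 fell in TAC-R hearts and Gpc1 had a difference in the other direction. Gpc3, glypican-3, a growth regulator of the embryo that binds Wnt and hedgehog proteins, read 3.93 and 4.00 on the TAC-R arrays and 5.83 and 5.52 on the TAC arrays, against 4.62 and 4.59 on the normal arrays. The groups did not overlap, with TAC-R lowest and TAC highest, but all 6 values were in the background, and those of TAC-R were below the median of the negative controls of their arrays (4.47 and 4.43). The fitted difference of -1.71 ± 0.22 passed between TAC-R and TAC hearts (adjusted p = 0.0171 in limma), and its size is not measured. Its adjusted p without any 1 of the 6 arrays was between 0.0585 and 0.18. Gpc1, glypican-1, read 15.02 and 14.58 on the TAC-R arrays and 14.32 and 14.18 on the TAC arrays, against 14.50 and 14.19 on the normal arrays. Both TAC-R arrays were the highest, and Gpc1 differed by 0.55 ± 0.24 from TAC and by 0.45 ± 0.24 from normal (adjusted p = 0.455 and 0.544 in limma), and these were 0.33 and 0.24 without TAC-R replicate 1. Among the 20 genes above background it was the only one with a difference above 0 between TAC-R and TAC hearts.

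Syndecans, which pair heparan sulphate with a short signalling tail inside the cell, varied less. Sdc2 read 10.76 and 11.02 on the TAC-R arrays and 11.31 and 11.19 on the TAC arrays, against 10.88 and 10.68 on the normal arrays, with TAC highest and the other groups overlapping. Sdc3 read 10.58 and 10.26 on the TAC-R arrays and 10.78 and 10.63 on the TAC arrays, against 10.69 and 10.70 on the normal arrays. The differences of the 4 syndecans lay between -0.43 and -0.16 for TAC-R minus TAC and between 0.01 and 0.47 for TAC minus normal, where Sdc1 and Sdc3 turned below 0 with 1 array left out, as Sdc1 turned above 0 for TAC-R minus TAC. Sdc1 (5.54 to 6.12) and Sdc4 (6.42 to 7.26) were in the background. Over the 3 genes above background (Gpc1, Sdc2 and Sdc3) the median difference was -0.29 between TAC-R and TAC hearts, 0.11 between TAC-R and normal hearts and 0.01 between TAC and normal hearts.

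Save for Lama5, the laminin, nidogen and agrin genes differed less between TAC and normal hearts than between TAC-R and TAC hearts. Lama5 differed by -0.34 ± 0.31 between TAC and normal hearts and by -0.22 ± 0.31 between TAC-R and TAC hearts. In any comparison 0 of 5 passed. In TAC-R hearts all 5 genes had a difference below 0 from both other groups, that of Lama5 from TAC turning above 0 with 1 array left out. At an unadjusted p under 0.05, 3 of 5 were lower than in TAC hearts, against 6.2% of all rows. Against normal hearts 3 of 5 were lower too, against 5.32% of all rows. Both times these were Lamc1, Nid2 and Agrn. Of the 5, only Lamb2 and Lamc1 were above background. Lamc1, the gamma-1 chain shared by most laminins, read 12.59 and 12.77 on the TAC-R arrays and 13.44 and 13.25 on the TAC arrays, against 13.45 and 13.38 on the normal arrays. It differed by -0.66 ± 0.21 from TAC and by -0.74 ± 0.21 from normal in TAC-R hearts (adjusted p = 0.29 and 0.306 in limma). Lamb2, the beta-2 chain of muscle and vessel laminins, read 12.12 and 11.92 on the TAC-R arrays and 12.47 and 12.33 on the TAC arrays, against 12.43 and 12.35 on the normal arrays, again with both TAC-R arrays lowest.

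The other genes of this class were in the background. Nid2, nidogen-2, which joins laminin to collagen IV, read 5.65 and 5.07 on the TAC-R arrays and 6.21 and 6.36 on the TAC arrays, against 6.44 and 6.44 on the normal arrays. Agrn, agrin, the heparan sulphate proteoglycan that clusters receptors at the neuromuscular junction, read 7.31 and 6.58 on the TAC-R arrays and 7.82 and 7.79 on the TAC arrays, against 7.67 and 7.63 on the normal arrays. Lama5 read 7.06 and 6.16 on the TAC-R arrays and 7.01 and 6.65 on the TAC arrays, against 7.24 and 7.09 on the normal arrays, with an overlap of TAC-R and TAC. Relative to the normal mean, the median of this class was -1.004 on TAC-R replicate 2 and -0.34 on TAC-R replicate 1. These medians are the values of Lama5 and Agrn, both in the background, so that their size is not measured. Above background, Lamc1 was higher on TAC-R replicate 2 than on TAC-R replicate 1 (12.77 against 12.59). Lamb2 was lower there (11.92 against 12.12).

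Fibroblast markers moved with the matrix genes both between TAC-R and TAC hearts and between TAC and normal hearts. By their medians the activated fibroblast, erythroid, smooth muscle and pericyte, macrophage, and T and B cell lists moved the same way. These were -0.79, -0.95, -0.52, -0.28 and -0.29 between TAC-R and TAC hearts. Between TAC and normal hearts they were 0.32, 2.17, 0.30, 0.42 and 0.23. Endothelial markers had medians of -0.59 and 0.05. Of the 6 T and B cell markers only 1 or 2 were above background on each array. The part of any cell type in the differences was not tested. Of 11 measured fibroblast markers, 3 fell in TAC-R against TAC hearts (Col3a1, Col1a2 and Col6a2), against 0.207% of all rows. In all, 10 had a difference below 0, and the median was -0.82. The 3 that fell are collagens and so matrix genes themselves, and Col3a1 and Col1a2 are counted again below among the fibrillar collagens. The 11 fibroblast markers averaged 8.35 and 8.05 on the TAC-R arrays and 9.07 and 9.13 on the TAC arrays, against 8.58 and 8.47 on the normal arrays. Their summed signal was 14016 to 18498 on the TAC-R arrays and 40546 to 45276 on the TAC arrays, against 23643 to 25255 on the normal arrays. A sum is set mostly by its brightest rows, and this list holds collagens. The 7 fibrillar collagens, which share at least Col3a1 and Col1a2 with it, summed to 8612 to 12276 on the TAC-R arrays. On the TAC arrays they summed to 30833 to 33782, against 16202 to 16806 on the normal arrays. Of these markers 5 or 6 were above background on each array, Pdgfra among them, while Tcf21 was in the background on all.

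Endothelial markers had their lowest means on the TAC-R arrays, 11.13 and 10.80, against 11.58 and 11.51 on the TAC arrays and 11.42 and 11.54 on the normal arrays. Their summed signal was 53740 to 72694 on the TAC-R arrays and 98978 to 100335 on the TAC arrays, against 105146 to 113072 on the normal arrays, and 0 of 10 passed between TAC-R and TAC hearts. Smooth muscle and pericyte markers averaged 9.74 and 9.39 on the TAC-R arrays and 10.21 and 10.05 on the TAC arrays, against 9.66 and 9.65 on the normal arrays, with summed signals of 363880 to 442454 on the TAC-R arrays, 385342 to 400672 on the TAC arrays and 385409 to 389662 on the normal arrays. Macrophage markers averaged 7.02 and 6.92 on the TAC-R arrays and 7.29 and 7.33 on the TAC arrays, against 6.93 and 6.66 on the normal arrays, and 0 of 13 passed.

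Atrial muscle markers ran the other way, at a mean of 9.44 and 7.92 on the TAC-R arrays and 6.35 and 6.38 on the TAC arrays, against 6.66 and 6.84 on the normal arrays. Of the 6, 4 were above background on TAC-R replicate 1, 3 on TAC-R replicate 2 and 2 on each of the other arrays, and their summed signal was 10114 to 35641 on the TAC-R arrays, 3182 to 3345 on the TAC arrays and 3083 to 3088 on the normal arrays. Of these 6, 1 (Myl7) rose in TAC-R hearts against both TAC and normal hearts, against 0.224% and 0.0604% of all rows. Erythroid markers averaged 11.17 and 11.29 on the TAC-R arrays and 12.50 and 12.35 on the TAC arrays, against 10.33 and 10.58 on the normal arrays. Of 8 erythroid markers 3 fell in TAC-R against TAC hearts (0.207% of all rows). In TAC-R against normal hearts 1 rose (0.0604%), and in TAC against normal hearts 5 rose (0.19%). The 11 cardiomyocyte markers averaged 18.63 and 18.62 on the TAC-R arrays and 18.22 and 18.23 on the TAC arrays, against 18.61 and 18.60 on the normal arrays. Of them Myh7 and Tcap rose in TAC-R against TAC hearts (0.224% of all rows), and Myh7 fell in TAC against normal hearts (0.0647%). Of 5 lymphatic markers Lyve1 and Ccl21 rose in TAC-R against TAC hearts (0.224% of all rows). Ccl21 fell in TAC against normal hearts (0.0647%), in the background. Activated fibroblast markers averaged 8.06 and 7.36 on the TAC-R arrays and 8.33 and 8.40 on the TAC arrays, against 7.98 and 8.06 on the normal arrays. Between TAC-R and TAC hearts 7 of 8 were below 0 with a median of -0.79, and 0 passed. This list shares Acta2 and Tagln with the smooth muscle and pericyte list. Markers of mesothelium, adipocytes, Schwann cells and cartilage were above background on 0 arrays.

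**Figure D5:**
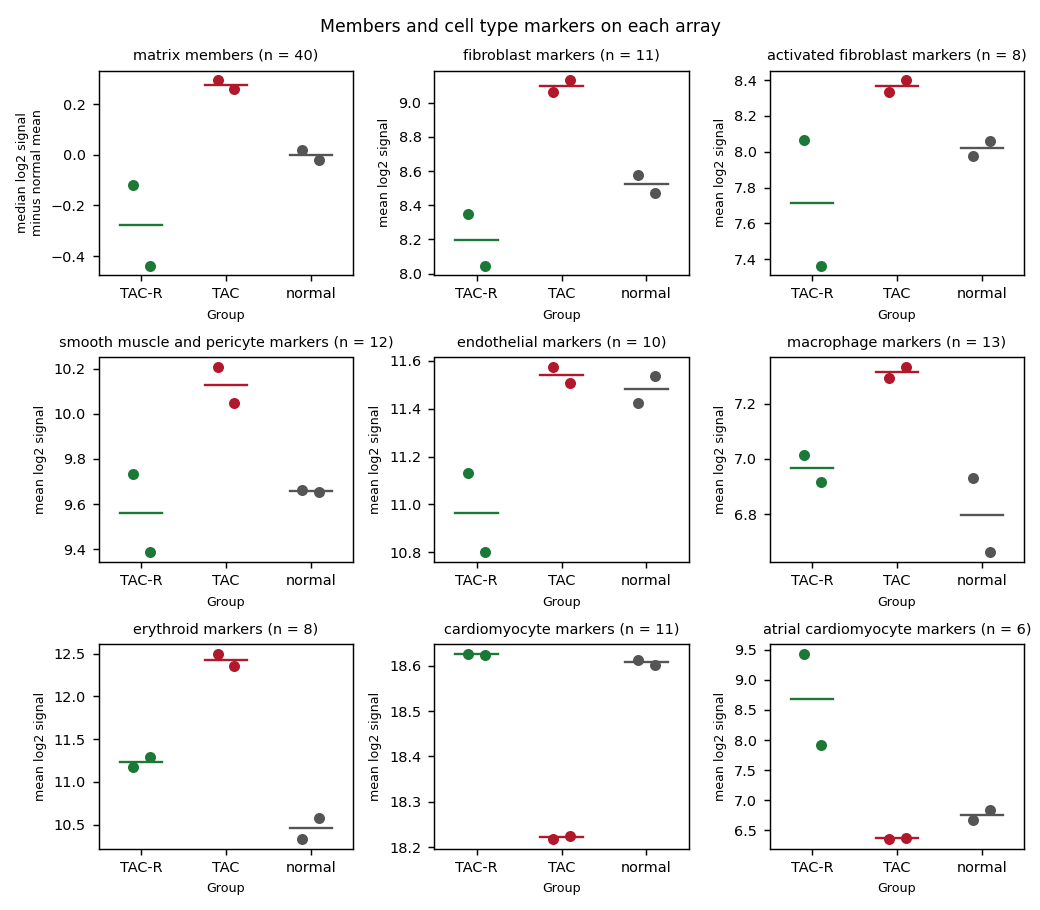
Median of the 40 matrix genes relative to their normal means, and mean log2 signal of 8 lists of cell type markers (vertical axes, each with its own range), on each array (points; lines are group means). The TAC points are highest for the matrix genes and the fibroblast, activated fibroblast, smooth muscle, macrophage and erythroid markers, and lowest for the cardiomyocyte and atrial markers.

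Related matrix genes outside the 40 were counted in the same fit. Of 7 measured fibrillar collagens Col3a1 and Col1a2 fell in TAC-R against TAC hearts (0.207% of all rows), with a median of -0.51 for the list. Of 19 other interstitial glycoproteins 0 passed, and the median was -0.54. At an unadjusted p under 0.05, 9 of the 19 were lower and 0 higher, against 6.2% and 4.79% of all rows. Their largest differences were those of Srpx, at least 1.97-fold lower without passing (adjusted p = 0.119 in limma), and Vtn, vitronectin (-1.26 ± 0.24, adjusted p = 0.0877 in limma). Of 12 other elastic fibre genes 0 passed and 5 were lower at an unadjusted p under 0.05, against 6.2% of all rows (median -0.49). These were led by the cross-linking enzymes Loxl2 and Loxl1, at least 1.50-fold and 1.62-fold lower without passing (adjusted p = 0.136 and 0.143 in limma). Lists that were not lower as a group were the 17 other cell surface and large proteoglycans (median 0.0032, 0 passed) and the 8 other laminins and basement membrane genes (median 0.02, 0 passed), which included Col4a1 at -1.11 ± 0.25, in the background, and Dag1, dystroglycan, the laminin receptor, at -0.40 ± 0.21 (adjusted p = 0.143 and 0.546 in limma). Among the cell surface and large proteoglycans the largest differences were those of Cd44, the hyaluronan receptor, which was in the background, and Srgn, serglycin, the proteoglycan of blood cell granules (-0.97 ± 0.37, adjusted p = 0.378 in limma). The 6 other small leucine-rich genes had a median of -0.13, 0 passed, and all were in the background, Epyc and Omd with the largest differences. In TAC-R minus normal and in TAC minus normal 0 genes of these 6 lists passed. At an unadjusted p under 0.05, 5 other interstitial glycoproteins were lower and 1 higher in TAC-R than in normal hearts, against 5.32% and 5.36% of all rows. In TAC against normal hearts 6 of them were higher and 0 lower, against 5.43% and 4.89% of all rows.

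Promoter sequences are shown for the called genes that have an entry in the RefSeq table used here, Efemp1 and Gpc3, and for Postn and Lum, which had the largest difference between TAC-R and TAC hearts among the entries of their classes. Entries matched 28 of the 43 genes. Each sequence is the 250 bases before the annotated start in build GRCr8, read 5′ to 3′ on the gene's strand, and lies at chr14:106811614-106811863 (plus strand) for Efemp1, chrX:137157599-137157848 (minus strand) for Gpc3, chr2:140677811-140678060 (plus strand) for Postn and chr7:34245456-34245705 (plus strand) for Lum. Capitals mark matches, on either strand, to the TATA box TATAAA, the GC box GGGCGG, the Smad box CAGACA, the TEAD site GGAATG and the AP-1 site TGANTCA.
Efemp1: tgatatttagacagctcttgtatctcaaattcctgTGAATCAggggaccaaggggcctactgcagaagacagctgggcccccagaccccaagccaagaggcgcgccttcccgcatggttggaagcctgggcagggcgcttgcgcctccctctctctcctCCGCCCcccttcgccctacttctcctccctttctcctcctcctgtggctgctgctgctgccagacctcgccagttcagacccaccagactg
Gpc3: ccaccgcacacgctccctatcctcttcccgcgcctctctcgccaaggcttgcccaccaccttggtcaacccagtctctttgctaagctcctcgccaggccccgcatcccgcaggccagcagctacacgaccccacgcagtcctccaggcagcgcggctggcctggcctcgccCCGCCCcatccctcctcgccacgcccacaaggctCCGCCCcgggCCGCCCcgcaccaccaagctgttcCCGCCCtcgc
Postn: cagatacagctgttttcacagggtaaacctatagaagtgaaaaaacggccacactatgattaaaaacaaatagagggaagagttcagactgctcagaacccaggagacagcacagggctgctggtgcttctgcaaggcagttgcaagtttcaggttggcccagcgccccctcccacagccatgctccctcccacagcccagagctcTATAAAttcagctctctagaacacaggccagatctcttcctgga
Lum: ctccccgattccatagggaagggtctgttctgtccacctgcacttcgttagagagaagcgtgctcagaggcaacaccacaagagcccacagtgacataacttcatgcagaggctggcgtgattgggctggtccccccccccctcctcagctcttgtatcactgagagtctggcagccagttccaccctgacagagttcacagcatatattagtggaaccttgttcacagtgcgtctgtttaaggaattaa

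These 4 sequences differ in the letters they hold. Gpc3 has 4 GC boxes, read as CCGCCC on this strand, the last starting at position -10, and 71.6% G and C. Efemp1 has a GC box at -91 and 61.2% G and C. It also has a match to the AP-1 pattern at -215, which reads TGAATCA, as the pattern allows any middle base. Postn has a TATA box at -44 and 50.8% G and C, and Lum has none of the 5 motifs and 52.8%. By the same rule Agrn stood for the laminin, nidogen and agrin class, and its sequence is not shown. It has a Smad box at -182 and 60.4% G and C. Over the 28 promoters of the matrix genes, 16 (57.1%) hold a GC box, against 30.5% of 33465 promoters of the same length, and the median G and C content was 61.6%, against 51.2%. The Smad box was in 25% of the 28 against 17.2% of all, the TEAD site in 17.9% against 12.1%, the TATA box in 14.3% against 12.9% and the AP-1 site in 3.57% against 6.34%. These are matches of letters and do not show binding.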

How the data were processed

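Per the labels, the deposited log2 values, 1 column per array of the Clariom S Rat platform, are the authors' RMA (robust multi-array average) values from a core-exon run of Expression Console, whose version the labels do not give. The log2 values were used without further scaling. The table had 24834 rows, of which 1646 control rows were left out, and a platform table named 15049 of the 23188 tested rows. Differences came from limma 3.58.1 in R 4.3.3, with all 6 arrays in 1 fit, a mean for each group, 3 residual degrees of freedom and no covariate, with Benjamini-Hochberg adjustment over all tested rows and a call at an adjusted p under 0.05. Values are ± SE of the model or ± SD of 2 arrays. An exact permutation test of 2 arrays against 2 has a smallest p of 0.33, and single genes therefore rely on limma's shared spread. The arrays' small number limits the precision. RMA makes the arrays' distributions alike, so a shift of all transcripts is not visible.

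The 43 genes, their classes and all lists were chosen with earlier results of these data known. Values on every array are given for called genes and, in each class, the gene with the highest signal and the 2 with the largest absolute difference in each comparison, with further genes added after their values were seen (Sparcl1, Thbs2, Eln, Fbln1, Ogn, Aspn, Sdc3, Lamb2 and Cilp). In the lists of other genes, called ones are named, or the 2 with the largest difference, mainly between TAC-R and TAC hearts. Alternatives were the moderation, filters on dim rows, the rows at the ceiling, control rows, the samples in the fit, the scaling between arrays, a replicate block, another call rule and leaving out each array.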

Additional observations from a re-analysis of the deposited data

How the results depend on the processing

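With 2 arrays a group the calls among the 40 genes moved with the setting, and the cause was not tested. For TAC-R minus TAC, against 3 genes called, limma called 11 with an intensity trend in the moderation (Fn1, Sparc, Fbn1, Efemp1, Mfap4, Bgn, Dcn, Lum, Prelp, Gpc3 and Lamc1), 5 of 20 with rows in the background left out (Fn1, Sparc, Fbn1, Eln and Lum), 3 with rows below the median mean left out (Fn1, Efemp1 and Lum), 9 where the call was an unadjusted p under 0.05 and at least 2-fold, 1 with control rows kept in, with quantile normalization or with a replicate block (Gpc3 each time), and 0 when the fit held these 2 groups alone, which leaving out a normal array repeats, or without any 1 TAC-R or TAC array. For TAC minus normal the count was 1 with the trend (Efemp1) and 7 with the 2-fold rule, and for TAC-R minus normal 2 with the trend (Sparc and Lamc1) and 1 with the 2-fold rule (Nid2), against 0 in both, and 0 without any 1 array. Calls over all rows of the fit, in either direction, moved as well. For TAC-R minus TAC they were 0.431% in the main fit, 1.48% with the trend and 1.97% with the 2-fold rule. They were 3.17% with rows in the background left out and 1.61% without rows below the median mean. For TAC minus normal the main fit, the trend and the 2-fold rule gave 0.254%, 0.733% and 1.52%. For TAC-R minus normal they gave 0.0906%, 0.673% and 1.43%. Genes higher in TAC-R than in TAC hearts at an unadjusted p under 0.05 were 1 instead of 0 with the trend, with either filter on dim rows, with arrays centred on their medians or with the replicate block. Of all rows in those fits, 4.56% to 8.7% were higher. With rows in the background left out, 9 genes of 20 were higher in TAC than in normal hearts instead of 14 of 40, against 10.9% of the rows kept. In TAC-R against normal hearts 0 were then higher instead of 1, against 11.1% of the rows kept. The median difference was then 0.45 for TAC minus normal (0.42 without rows below the median mean) and -0.35 for TAC-R minus normal.

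Leaving out each array in turn, with the lone array of a group assumed to vary like the others, the median difference ranged from -0.87 to -0.49 for TAC-R minus TAC and from -0.44 to -0.12 for TAC-R minus normal. Genes at an unadjusted p under 0.05 numbered 0 to 1 higher for TAC-R minus TAC, 0 to 4 higher for TAC-R minus normal, and 8 to 14 higher and 0 to 1 lower for TAC minus normal. The direction turned, at differences that did not pass, for Gpc1 (-0.25 to 0.0585), Dcn (-0.0028 to 0.38) and Lamc1 (-0.17 to 0.0192) in TAC minus normal and for Mfap4 (-0.84 to 0.16) in TAC-R minus normal. Over all 40 genes, leaving out 1 array turned the direction of 5 differences for TAC-R minus TAC (each 0.218 or smaller in size), 13 for TAC-R minus normal (0.339 or smaller) and 12 for TAC minus normal (0.187 or smaller), Bgn and Postn for TAC-R minus normal and Fbln5, Aspn, Sdc3 and Lamb2 for TAC minus normal among them. The other alternatives turned 2, 4 and 4. With 1 array left out, 24, 30 and 23 of the 40 differences moved by over 1.5 times or turned. The labels give the same replicate numbers to all groups without saying that a number marks a shared animal or day, and deviations of same-numbered arrays correlated at 0.01 (TAC and normal), -0.01 (TAC-R and TAC) and -0.0093 (TAC-R and normal), so the block rests on a number alone. Averaging several rows of a gene was not run because each gene had 1 row. Signal over background limits 20 of the 40 genes.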

Other observations

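The enzymes that build and modify glycosaminoglycan chains were measured in 31 genes, of which limma called 0 in any comparison. Between TAC-R and TAC hearts 5 were lower and 1 higher at an unadjusted p under 0.05, against 6.2% and 4.79% of all rows. The median difference was -0.17. Sulf2, which removes sulphate groups from heparan sulphate outside the cell, had a mean of 8.82 in TAC-R hearts against 10.03 in TAC hearts (-1.21 ± 0.21, adjusted p = 0.0594 in limma). Chst15, a chondroitin sulphotransferase, was in the background. Between TAC and normal hearts 4 were higher and 0 lower at an unadjusted p under 0.05, against 5.43% and 4.89% of all rows. The median was 0.07, and Dse and Chpf, with the largest differences, were in the background. Between TAC-R and normal hearts 3 were lower and 2 higher, against 5.32% and 5.36% of all rows, with a median of 0.05.

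Of 10 measured integrin genes, the receptors through which cells hold fibronectin, laminin and osteopontin, limma called 0 in any comparison. At an unadjusted p under 0.05, 3 were lower in TAC-R than in TAC hearts, against 6.2% of all rows. In TAC against normal hearts 2 were lower and 1 higher, against 4.89% and 5.43% of all rows. In TAC-R against normal hearts 1 was lower, against 5.32% of all rows. Itga6, a laminin receptor subunit, had a mean of 11.94 in TAC hearts against 13.27 in normal hearts (-1.33 ± 0.23, adjusted p = 0.0895 in limma), and 12.45 in TAC-R hearts. Itgb5 had a mean of 9.22 in TAC-R hearts against 10.20 in TAC hearts (-0.98 ± 0.23, adjusted p = 0.159 in limma).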
